A study of Oryctolagus cuniculus with 3 samples.

Results

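Cytochrome P450 genes and the genes of the aryl hydrocarbon receptor were followed through the differentiation of rabbit corneal epithelial cells in culture. The set holds 50 of the 20536 gene names in the deposited tables: 45 P450 genes, the aryl hydrocarbon receptor AHR, its repressor AHRR, its partner ARNT2, the reductase POR, and LOC100353821, an unnamed gene that lies next to CYP2A11. They were chosen by name: 31 carry their name in the gene column, 17 are listed there under a LOC number that has a P450 symbol in RefSeq, and 2, CYP1A1 and CYP1A2, under a LOC number that has the P450 name as a RefSeq synonym. CYP26A1 and CYP51A1 were left out by the rule.

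RCE1(5T5) is a line of rabbit corneal epithelial cells, and all 3 groups come from this single line. RNA was sequenced at 3 stages with 1 library each: non-differentiated (day 4 of culture), committed (day 6) and terminally differentiated (day 10). All of them grew on a feeder layer of mouse 3T3 fibroblasts treated with mitomycin C, in a medium with fetal calf serum, insulin, transferrin, hydrocortisone, triiodothyronine, cholera toxin, adenine and epidermal growth factor. EDTA was used to detach the feeder layer ahead of RNA isolation.

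P450 enzymes are heme proteins that add oxygen to drugs, pollutants, fatty acids, sterols and vitamins. Those of the endoplasmic reticulum take their electrons from NADPH through POR, the P450 reductase. AHR is a transcription factor that waits in the cytoplasm with chaperones until it binds a ligand such as a polycyclic aromatic hydrocarbon, then pairs with ARNT in the nucleus and switches on CYP1A1, CYP1A2 and CYP1B1. In the cornea, P450 enzymes are known for making bioactive fatty acid derivatives from arachidonic acid.

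Levels are given as counts of fragments scaled to a total of 1000000 (CPM) after scaling with trimmed mean of M values (TMM), which serves to compare 1 gene between days. The authors' TPM, which also corrects for coding length, is used to compare genes with each other. Genes at or above 1 CPM in any of the libraries count as measured. For these, "rose" and "fell" stand for a difference of at least 2-fold in log2(CPM + 1). This scale understates the change of low genes. With 1 library per stage no test was made, stage and library cannot be told apart, and brackets after a fold give the 95% counting interval of the fragments only. The libraries held between 10171693 and 12582706 fragments. The corneal keratin KRT3 was at 149.6, 954 and 2018 CPM on days 4, 6 and 10. Between day 4 and day 6, 10 of 13 measured corneal epithelial markers rose, where 8.06% of all measured genes did. Of 22 measured fibroblast and feeder markers, 19 fell by at least 2-fold between day 4 and day 10, where 15.8% of all measured genes did. ACTA2 and POSTN were lower by less, and THY1 alone rose. The summed level of the 23 such markers in the tables was 8588, 5227 and 3225 CPM on days 4, 6 and 10. In these bulk libraries, fewer cells of a type and less RNA per cell cannot be told apart.

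Of the 50 genes, 25 were measured. Another 11 had no fragment on any day: AHRR, CYP1A2, CYP2C16, CYP2C30, CYP2D24, CYP4A5, CYP4A7, CYP4X1, CYP7A1, CYP11A1 and CYP19A1. At these depths 3 fragments correspond to 0.275, 0.249 and 0.283 CPM on days 4, 6 and 10, which is the upper limit that a count of 0 allows. A further 11 held fewer than 10 fragments over all days together: ARNT2, CYP2C, CYP2C1, CYP2C2, CYP2C4, CYP2C5, CYP2C14, CYP2G1, CYP4A6, CYP8B1 and CYP11B2. The remaining 3, CYP7B1, CYP26C1 and CYP46A1, had more fragments but stayed below 1 CPM. The silent and near-silent genes included the bile acid enzymes CYP7A1 and CYP8B1 of the liver and the steroid hormone enzymes CYP11A1, CYP11B2 and CYP19A1 of the adrenal and gonads.

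In committed cells on day 6, 5 of the 25 measured genes had risen over day 4 (CYP2B4, CYP4B1, CYP4F22, CYP4V2 and CYP27C1) and 3 had fallen (CYP1A1, CYP1B1 and CYP20A1). Among all 12818 measured genes, 8.06% rose and 6.73% fell at this step. With the authors' TPM in place of CPM, 4 of the risers no longer passed 2-fold and CYP4F22 still did, and the fallers were the same 3. On that scale the minimum was 1 TPM in any library, and 4.53% of the genes that reached it rose and 13.2% fell. CYP2B5, CYP3A6 and CYP17A1 did not reach it. The 3 fallers among the other measured members are close to the share of all genes. Between day 6 and day 10, 9 of the 25 rose (LOC100353821, CYP2A11, CYP2B4, CYP2B5, CYP2D23, CYP2U1, CYP4B1, CYP24A1 and CYP27C1) and CYP27B1 alone fell, against 8.25% and 7.1% of all measured genes. Over the whole interval, terminally differentiated against non-differentiated cells, 10 rose and 3 fell, against 17.1% and 15.8%. The median difference of the 25 was 0.28, 0.58 and 0.94 on the log2 scale in these comparisons, and that of all measured genes was 0.00, -0.01 and 0.01. A gene that was measured only through its day 10 level could only count as higher on that day, which was so for CYP2A11, CYP2B5, CYP2D23, CYP2U1, CYP2R1 and CYP17A1. CYP2B4, CYP3A6, CYP4B1 and CYP4F22 were below 1 CPM on day 4 and could not fall against that day. LOC100353821, at 0.581 CPM on day 6, could not fall between day 6 and day 10. Likewise, CYP1A1 was measured only through its day 4 level and could only count as lower later. The comparisons share libraries, so their counts are not separate results.

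**Figure D1:**
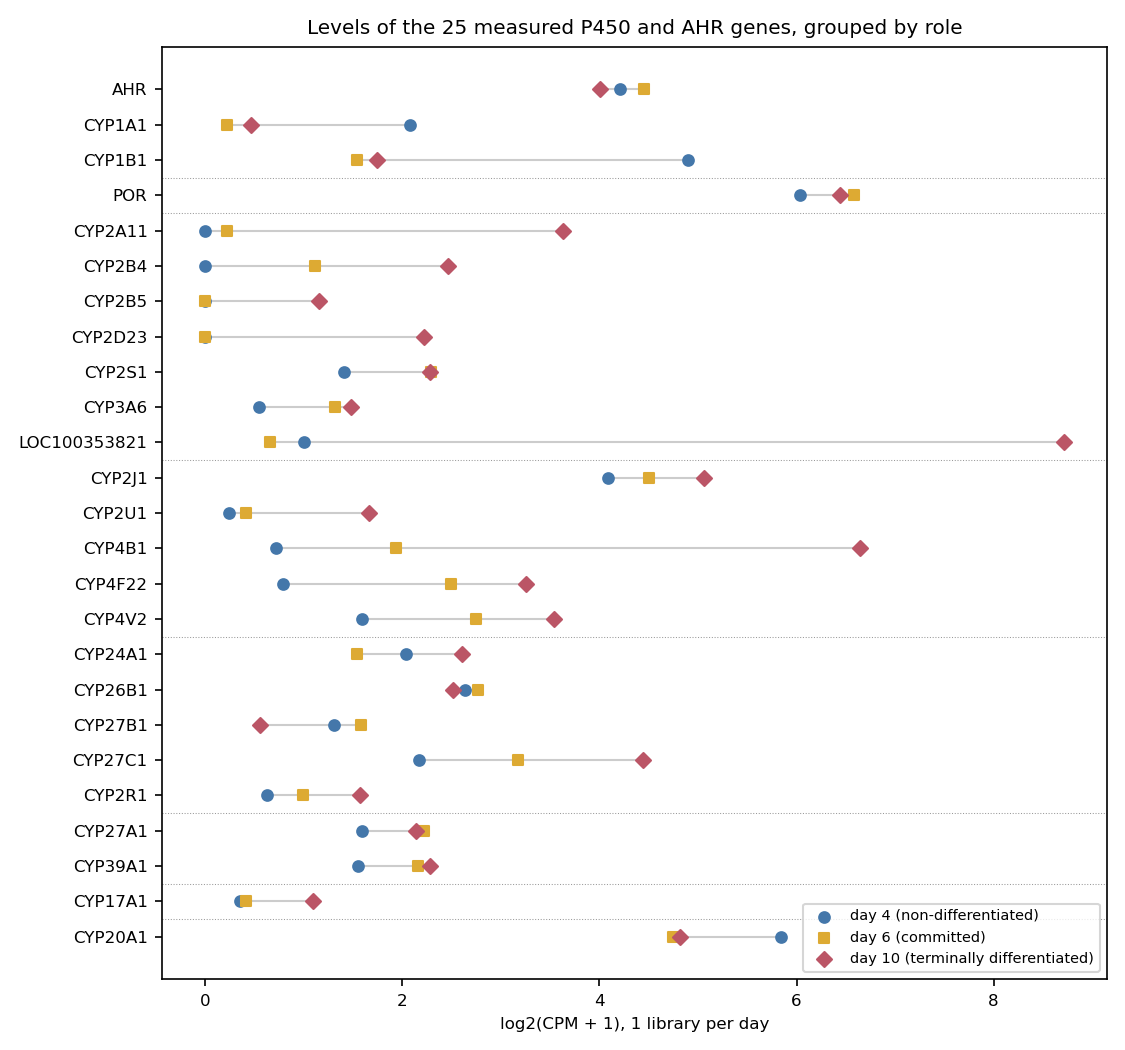
Levels of the 25 measured genes as log2(CPM + 1), with 1 point for the library of each day and dotted lines between the groups of genes by role. LOC100353821 and CYP4B1 have their day 10 points far to the right, at 418.9 and 99.3 CPM, and CYP1B1 has its day 4 point far to the right of the other days, at 28.9 CPM.

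AHR did not pass 2-fold at either step, while its classic targets CYP1A1 and CYP1B1 fell between day 4 and day 6. The receptor was at 17.4, 20.9 and 15.1 CPM on days 4, 6 and 10, and its partner ARNT, which is not one of the 50 genes, at 34.1, 42.6 and 44.5 CPM. Neither gene passed 2-fold in any comparison, and the difference of AHR for day 6 over day 4 was 0.25 with CPM and -0.11 with TPM. ARNT2, a relative of ARNT best known from neurons, had at most 4 fragments on any day, and the repressor AHRR had none.

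CYP1B1, which oxidises estrogens and polycyclic hydrocarbons and whose loss causes congenital glaucoma in humans, had 315, 23 and 25 fragments on days 4, 6 and 10, or 28.9, 1.91 and 2.36 CPM. It was 15.2-fold lower on day 6 than on day 4 [9.92 to 24.3], the 6th largest fall on the log2 scale among the 12818 measured genes. The level on day 10 was close to that on day 6, with a ratio of 1.23 [0.672 to 2.28]. CYP1A1, the most used marker of AHR activity, also had its highest level on day 4. It had 35, 2 and 4 fragments on days 4, 6 and 10. Its ratio was 0.0516 for day 6 over day 4 [0.00602 to 0.201] and 0.117 for day 10 over day 4 [0.0303 to 0.328]. The fragments of CYP1A1 were split evenly between 2 coding sequences of that gene. Its neighbour CYP1A2, a liver enzyme in most mammals, had no fragment.

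CYP20A1, a P450 with no settled substrate, also stepped down between day 4 and day 6. It was at 56.4, 25.9 and 27.1 CPM on days 4, 6 and 10, and day 6 was 2.18-fold below day 4 [1.90 to 2.50]. By TPM it was the highest of the 45 P450 genes on day 4 with 39.5 TPM, ahead of CYP1B1 with 16.4 TPM and CYP2J1 with 11.5 TPM. The fibroblast and feeder markers also went down at this step: 8 of 22 fell and 0 rose, against 6.73% and 8.06% of all measured genes. Their median was -0.89, and individual falls reached -3.49 for THBS1. Between day 6 and day 10, 10 of the 22 markers fell and 1 rose (median -0.94), against 7.1% and 8.25% of all measured genes. None of CYP1B1, CYP1A1 and CYP20A1 passed 2-fold at that step. CYP1A1, at 0.166 CPM on day 6, could not fall 2-fold on this scale, and CYP1B1, at 1.91 CPM, had little room to. Of the listed fibroblast and feeder markers, DCN was at 22, 9.62 and 3.67 CPM on days 4, 6 and 10. COL1A1 was at 542, 312.5 and 265 CPM and VIM at 1527, 1203 and 581 CPM, and LUM had no fragment. The part of fibroblast or feeder RNA in the levels of CYP1B1, CYP1A1 and CYP20A1 was not tested.

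**Figure D2:**
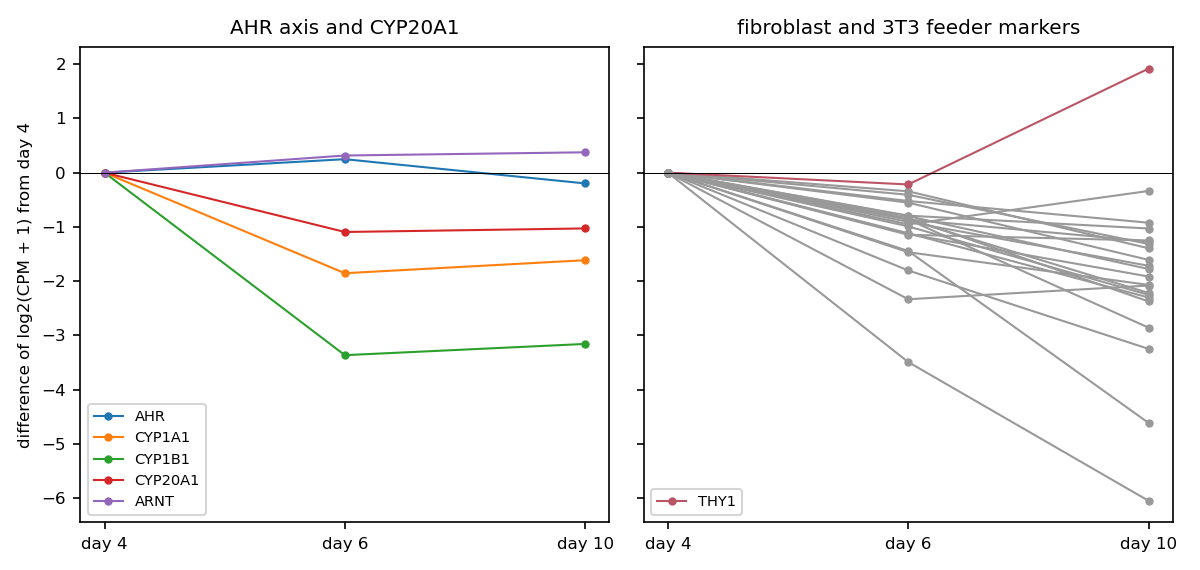
Difference of log2(CPM + 1) from day 4, with 1 line per gene and 1 library per day, for AHR, ARNT, CYP1A1, CYP1B1 and CYP20A1 (left) and for the 22 measured fibroblast and feeder markers (right). CYP1B1 drops to -3.36 by day 6 and stands at -3.16 on day 10, AHR stays between -0.20 and 0.25, and THY1 is the one marker above its day 4 level on day 10.

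Other genes tied to AHR were taken from a list. Of its 18 measured AHR chaperones, partners and targets, 1 rose and 2 fell between day 4 and day 6, with a median of -0.26, where 8.06% and 6.73% of all measured genes did. The fallers were SERPINB2 and EREG, both known to respond to AHR ligands in human keratinocytes and also to growth factor signalling. SERPINB2 was at 5.39 CPM on day 6 against 194.6 CPM on day 4, and EREG at 2.07 CPM on day 6 against 21.1 CPM on day 4. The riser was EPAS1, another partner of ARNT, at 3.98 CPM on day 6 against 1.29 CPM on day 4. TIPARP, an AHR target that feeds back on the receptor, was at 49.9, 26.9 and 36.8 CPM on days 4, 6 and 10, and NQO1, a quinone reductase driven by AHR and NRF2, at 51.9, 47.8 and 47.8 CPM. Between day 6 and day 10, 3 of the 18 rose and 4 fell, against 8.25% and 7.1% of all measured genes. The largest of these falls was that of SLC7A5, at 22.5 CPM on day 10 against 128.1 CPM on day 6. The chaperone HSP90AA1, which holds AHR in the cytoplasm, fell too, at 925 CPM on day 10 against 1978 CPM on day 6. For day 10 over day 4, 2 of the 18 rose and 7 fell with a median of -0.49, against 17.1% and 15.8%.

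The largest change of the whole set was that of LOC100353821. It had 11, 7 and 4448 fragments on days 4, 6 and 10, or 1.01, 0.581 and 418.9 CPM. Day 10 was 722-fold above day 6 [350 to 1796], and the difference of 8.05 on the log2 scale was the largest rise of the 12818 measured genes. Against day 4 it was 415-fold higher [232 to 832], the 5th largest rise. On day 10 it ranked 383rd of all gene names by CPM and reached 220 TPM, against 129.8 TPM for the 45 named P450 genes together. Neither the tables nor RefSeq gives it a name, and its place beside CYP2A11 is all that ties it to this set.

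CYP2A11, a rabbit enzyme of the CYP2A subfamily, had 0, 2 and 121 fragments on days 4, 6 and 10, or 0, 0.166 and 11.4 CPM. Its ratio was 68.7 for day 10 over day 6 [18.6 to 574], and day 10 was at least 41.4-fold above day 4. Its fragments made up 2.72% of those of LOC100353821 on day 10. Whether fragments of either gene were counted in the other was not tested. Further along, CYP2B4, a drug-oxidising enzyme first studied in rabbit liver, had 0, 13.5 and 48.5 fragments on days 4, 6 and 10, and rose at both steps. CYP2B5, which RefSeq now folds into CYP2B4, had 0, 0 and 13 fragments. The counts of CYP2B4 are fractional on days 6 and 10, and those of CYP2B5 are whole. How reads were split between CYP2B4 and other genes, CYP2B5 among them, is uncertain. With CYP2B4 and CYP2B5 counted as 1 gene, the number that rose by day 10 was 9 over day 4 and 8 over day 6. Of all measured genes, 17.1% and 8.25% did.

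These genes lie in 1 neighbourhood in the mOryCun1.1 assembly, used here for gene order only. It runs from CYP2S1 over LOC100328948, CYP2B4, LOC100353574, CYP2G1 and CYP2A11 to LOC100353821, with LOC100354078 and EGLN2 beyond. Of those 7 genes from CYP2S1 to LOC100353821, LOC100353574 and CYP2G1 were not measured. Between day 4 and day 10, 4 of the 7 rose, where 17.1% of all measured genes did. Of these risers, LOC100328948 and CYP2A11 were measured only through day 10. CYP2B4, with 0 fragments on day 4, could not fall against that day either. The neighbours outside the set were added after their values were seen. LOC100354078, also measured only through day 10, was at 9.51 CPM on day 10 against 0.367 CPM on day 4. The unnamed LOC100328948 had 44 fragments on day 10 against 0 on day 4. CYP2G1, an enzyme of the rabbit olfactory mucosa, had 1 fragment on day 10 and none before, and LOC100353574 had 3 on day 10 and none before. The nearest other named genes on either side were not among the risers: AXL, a receptor kinase, was at 52 CPM on day 10 against 120.3 CPM on day 4, and EGLN2, an oxygen sensor, at 56.7 CPM against 32 CPM. CYP2S1, a P450 of surface epithelia, had 18, 47 and 41 fragments on days 4, 6 and 10, with differences of 0.89 and -0.01 at the 2 steps.

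**Figure D3:**
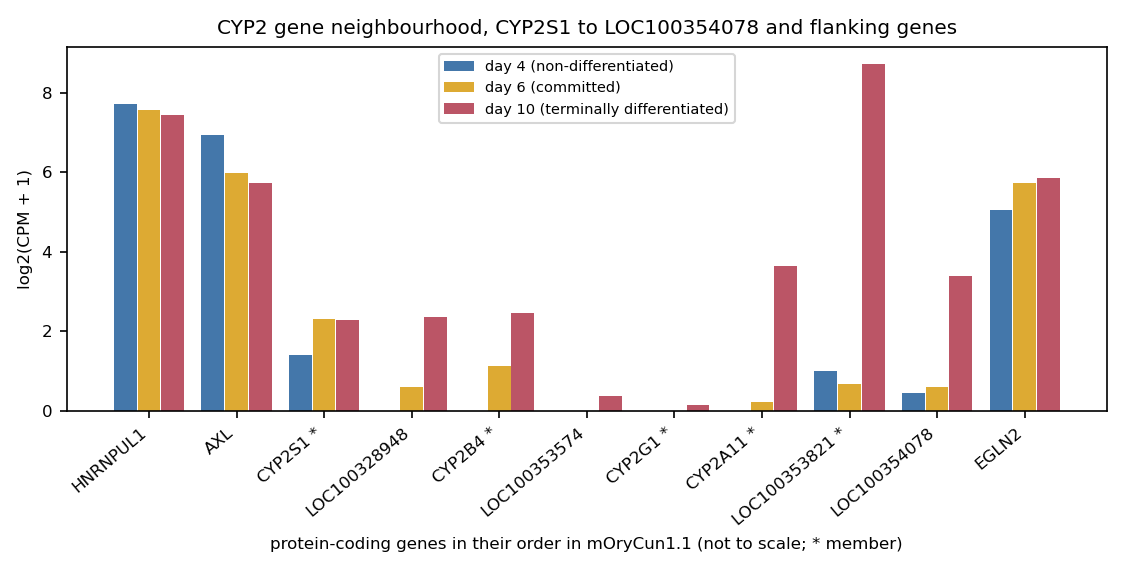
Levels as log2(CPM + 1) of the genes around CYP2A11 in their order in mOryCun1.1 (not to scale), with 1 bar for the library of each day and members marked by an asterisk. The day 10 bar stands above the others from LOC100328948 to LOC100354078, with the highest at LOC100353821 (418.9 CPM). Within that run LOC100353574 and CYP2G1 are near the floor on day 10, at 0.283 and 0.0942 CPM. HNRNPUL1, AXL and EGLN2 were present on all days.

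The other drug-metabolising genes of families 2 and 3 were at low levels. CYP2D23 had 39 fragments on day 10 and none before, at least 14.8-fold above day 6. CYP3A6, the rabbit counterpart of the main drug-oxidising enzymes of human liver, had 5, 18 and 19 fragments on days 4, 6 and 10 with differences of 0.77 for day 6 over day 4 and 0.94 for day 10 over day 4, both short of 2-fold on this scale. The ratio of its CPM values for day 10 over day 4 was 3.90 [1.41 to 13.4]. The 8 CYP2C genes together held 7, 2 and 8 fragments on days 4, 6 and 10. All of the day 10 fragments belonged to CYP2C5, which in rabbit liver converts progesterone. Of the 7 hepatocyte markers in the tables, ALB, APOA1, TTR, TF and FGB had no fragment in any library, HNF4A had 3, 7 and 4 fragments on days 4, 6 and 10, and APOB had 42, 20 and 4.

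Among enzymes of fatty acids and eicosanoids, CYP4B1 had the largest difference for day 10 over day 4. This enzyme, which oxidises fatty acids and plant toxins and has been tied to inflammatory eicosanoids of the rabbit cornea, had 7, 34 and 1054 fragments on days 4, 6 and 10, or 0.642, 2.82 and 99.3 CPM. It rose 4.39-fold between day 4 and day 6 [1.92 to 11.7] and 35.2-fold between day 6 and day 10 [25 to 51.1]. The day 10 level was 154.5-fold above that of day 4 [74.7 to 385], the 13th largest rise of all measured genes. At 48.5 TPM, it was then the highest of the 45 named P450 genes, followed by CYP2J1 with 18.1 TPM, CYP20A1 with 14.4 TPM and CYP27C1 with 11.8 TPM. CYP4B1 stands next to the CYP4A genes in mOryCun1.1. Of these, CYP4A5 and CYP4A7 had no fragment and CYP4A6 at most 3.9 on any day, and CYP4X1 at the other end of the row had none.

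CYP4F22, whose human counterpart makes the very long hydroxy fatty acids of the skin barrier, had 7.5, 55.5 and 91 fragments on days 4, 6 and 10. Day 6 was 6.33-fold above day 4 [3.00 to 15.4], and day 10 was 1.85-fold above day 6 [1.31 to 2.62]. CYP4V2, whose human counterpart is mutated in a dystrophy of the cornea and retina, had 22, 69 and 113 fragments on days 4, 6 and 10. It was 2.83-fold higher on day 6 than on day 4 [1.73 to 4.81] and 5.27-fold higher on day 10 than on day 4 [3.32 to 8.75]. Neither passed 2-fold at the second step.

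CYP2J1, which RefSeq now names CYP2J2 after the human enzyme that epoxidises arachidonic acid, was at 16, 21.7 and 32.4 CPM on days 4, 6 and 10. Its difference of 0.98 for day 10 over day 4 fell just short of 2-fold on the log2(CPM + 1) scale, while the ratio of the CPM values was 2.03 [1.69 to 2.45]. Its 2 listed coding sequences, which are not separate measurements, were at 9.4 and 8.7 TPM on day 10 against 6.3 and 5.2 TPM on day 4. CYP2U1, a hydroxylase of long fatty acids in human tissues, had 1.9, 4.1 and 23.1 fragments on days 4, 6 and 10, with a ratio of 6.53 for day 10 over day 6 [2.23 to 26].

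Of 18 other measured eicosanoid enzymes, 3 rose and 3 fell at the first step, against 8.06% and 6.73% of all measured genes. At the second step 3 rose and 2 fell, against 8.25% and 7.1%. On day 10, 5 had risen and 4 had fallen against day 4 (median 0.50), where 17.1% and 15.8% of all measured genes had. The phospholipase PLA2G4F was at 39.3 CPM on day 10 against 1.01 CPM on day 4, and the epoxide hydrolase EPHX3, at 3.11 CPM on day 10, had no fragment on day 4. The cyclooxygenase PTGS1 was at 5.56 CPM on day 10 against 31.6 CPM on day 4. PTGS2, its inducible relative, was at 111.4, 15.2 and 38.3 CPM on days 4, 6 and 10.

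**Figure D4:**
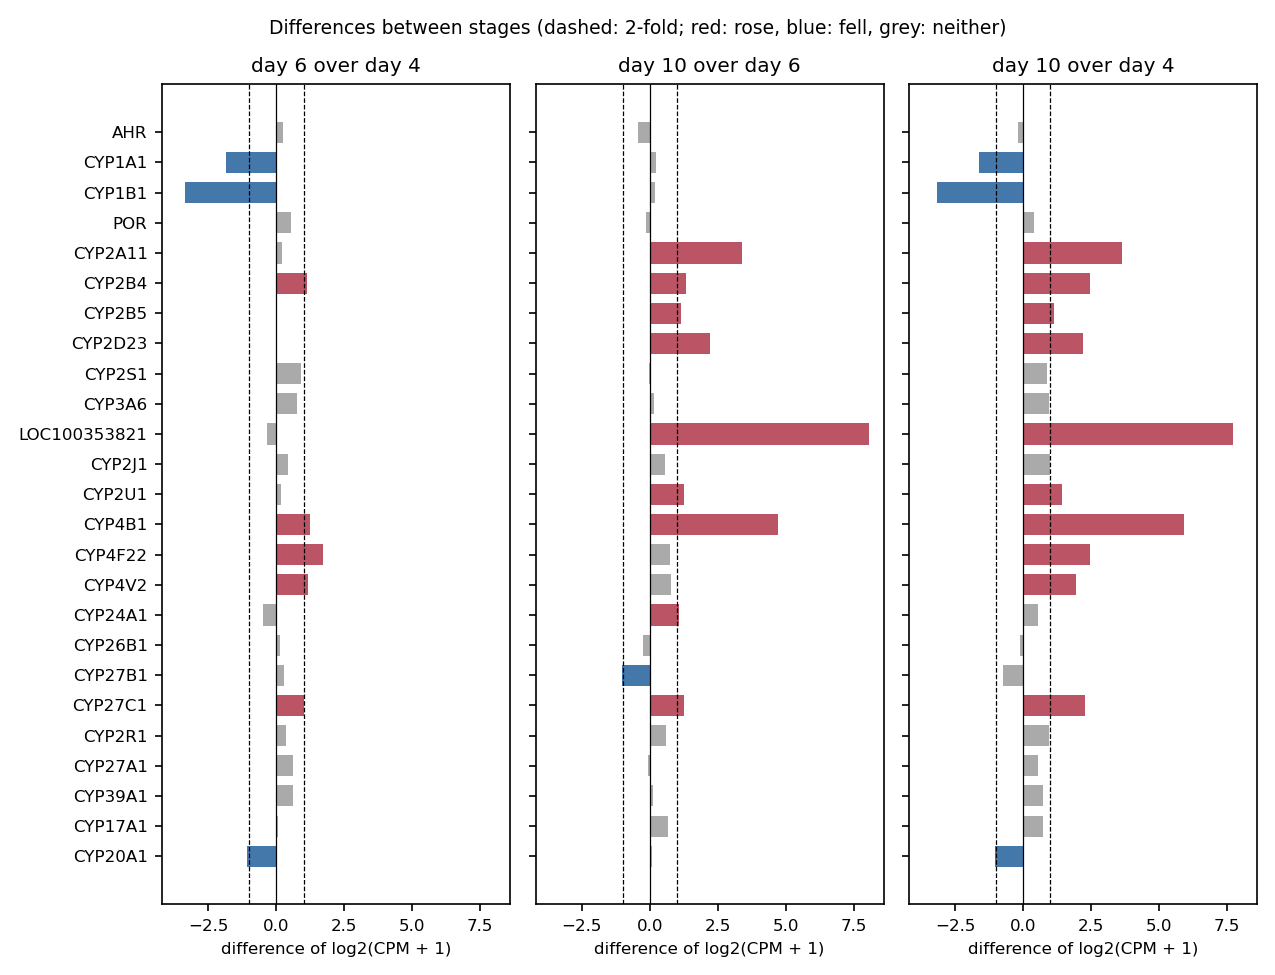
Difference of log2(CPM + 1) between the libraries of 2 days for the 25 measured genes, with dashed lines at 2-fold. In the left panel 3 bars pass 2-fold downwards (CYP1A1, CYP1B1 and CYP20A1), and in the middle panel the 9 bars that pass it upwards are led by LOC100353821 at 8.05 and CYP4B1 at 4.71.

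Of the vitamin A and D enzymes, CYP27C1 rose at both steps. It desaturates retinol in human skin, and it was at 3.49, 8.05 and 20.7 CPM on days 4, 6 and 10. Day 10 was 5.94-fold above day 4 [4.20 to 8.62]. The rise at the first step lay at the threshold, with a difference of 1.01. CYP26B1, which clears retinoic acid, was at 5.23, 5.81 and 4.71 CPM on days 4, 6 and 10 and did not pass 2-fold in any comparison. CYP26C1, of the same family, had 2, 6 and 3 fragments on those days.

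CYP24A1, which inactivates vitamin D, and CYP27B1, which makes its active form, differed in sign between day 6 and day 10, both near the 2-fold threshold. CYP24A1 had 34.5, 23 and 54 fragments on days 4, 6 and 10, with a ratio of 2.67 for day 10 over day 6 [1.61 to 4.55]. Its difference was 1.07, and with TPM it was 0.74 and no longer passed 2-fold. CYP27B1 had 16, 24 and 5 fragments on those days and was 4.23-fold lower on day 10 than on day 6 [1.58 to 14.2]. Its difference of -1.02 lay at the threshold. It fell just short of 2-fold without TMM and with read counts, and was -0.74 with TPM. CYP2R1, which adds the first hydroxyl group to vitamin D, had 6, 12 and 21 fragments. Its difference for day 10 over day 4 was 0.94, short of 2-fold on the log2(CPM + 1) scale, while the ratio of the CPM values was 3.59 [1.40 to 10.9]. The vitamin D receptor VDR was at 4.5, 4.4 and 6.5 CPM on days 4, 6 and 10.

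No sterol or steroid enzyme passed 2-fold on the log2(CPM + 1) scale, though for day 10 over day 4 the ratio of the CPM values was 4.11 for CYP17A1 [1.11 to 22.7] and 2.00 for CYP39A1 [1.16 to 3.57]. CYP27A1, a mitochondrial sterol hydroxylase, was at 2.02, 3.65 and 3.39 CPM on days 4, 6 and 10. CYP39A1, which hydroxylates oxysterols, was at 1.93, 3.48 and 3.86 CPM on those days, close to CYP27A1 in its course. CYP17A1, the enzyme of androgen and cortisol synthesis, had 3, 4 and 12 fragments on days 4, 6 and 10, while CYP7B1 had 3, 4 and 10 and CYP46A1, the cholesterol hydroxylase of the brain, 5, 6 and 2.

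POR, which serves all microsomal P450 enzymes, had the highest TPM of the 50 genes on days 4 and 6. It was at 64.5, 95 and 85.7 CPM on days 4, 6 and 10, and passed 2-fold in no comparison. The TPM of the 45 P450 genes added up to 85.4 on day 4, 53.2 on day 6 and 129.8 on day 10, against 45.9, 55.7 and 50.2 TPM for POR. The ratio of POR to this sum was thus 0.538, 1.05 and 0.387. The number of P450 genes at or above 1 CPM was 12 of 45 on day 4, 15 on day 6 and 20 on day 10, and CYP4B1 alone made up 39.2% of their summed CPM on day 10, against 0.494% on day 4.

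None of the 13 measured redox partners passed 2-fold at the first step, against 8.06% up and 6.73% down among all measured genes. At the second step 1 rose and 0 fell, against 8.25% and 7.1%. The riser was the cytochrome b5 reductase CYB5R2, with 72 CPM on day 10 against 30.3 CPM on day 6. For day 10 over day 4 the counts were 2 up (CYB5R2 and CYB5D2) and 1 down (FDXR), against 17.1% and 15.8%. Of 18 genes of heme synthesis and breakdown, 3 rose and 2 fell over the whole interval, which is near the 17.1% and 15.8% of all measured genes. The largest of these rises was that of BLVRB, a reductase of biliverdin and flavins, at 540.3 CPM on day 10 against 117.2 CPM on day 4. ALAS1, the rate-limiting enzyme of heme synthesis, was at 64, 66.1 and 106.1 CPM on days 4, 6 and 10. Of 16 measured nuclear receptors and their coregulators, 5 rose and 0 fell between day 4 and day 10 with a median of 0.42, against 17.1% and 15.8% of all measured genes. They were the retinoic acid receptors RARA, RARB and RARG, the glucocorticoid receptor NR3C1 and the coactivator NCOA2. The xenobiotic receptor NR1I2 (PXR), a known driver of CYP2B, CYP2C and CYP3A genes, had no fragment. NR1I3, another receptor of this list, was measured, at 3.30, 3.90 and 3.11 CPM on days 4, 6 and 10.

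Of 13 measured conjugation enzymes and transporters, 4 rose between day 4 and day 6 and 0 fell, with a median of 0.45, against 8.06% and 6.73% of all measured genes. They were GSTM3, MGST1, MGST3 and the sulfotransferase SULT2B1. GSTM3 was at 451 CPM on day 6 against 183.4 CPM on day 4. None of the 13 passed 2-fold between day 6 and day 10, where 8.25% of all measured genes rose and 7.1% fell. Of 14 measured flavin monooxygenases, reductases and esterases, 5 rose and 3 fell over the whole interval (median 0.15), against the same 17.1% and 15.8%. The carboxylesterase CES1 was at 25.2 CPM on day 10 against 0.0918 CPM on day 4, and the retinal reductase DHRS3 at 9.61 CPM against 0.734 CPM.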

How the data were processed

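RNA of 3 cultures was measured, 1 per stage. Per the labels' protocols, Trizol RNA was turned into libraries with a TruSeq kit. The submitters' processing notes name OryCun2.0 as genome build. The aligner, the counting program and the strand setting were not given in the sources used here. Per the file headers, the deposited tables give fragment and read counts per coding sequence, which are expected counts (many are fractional), a transcript coverage signal, FPKM, RPKM and TPM; the authors' TPM sums to just under 1000000 per library.

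Fragments were summed over the 38696 coding sequences by gene name, rounded, and scaled with TMM factors of 1.071 (day 4), 0.958 (day 6) and 0.974 (day 10) from edgeR 4.0.16 in R 4.3.3. Of 5185 LOC names, 671 took a RefSeq symbol by gene ID. Fold intervals are exact Clopper-Pearson intervals and cover counting error only. A fold against 0 fragments is computed against 3 in that library. Scaling without TMM or with DESeq2 1.42.0 size factors, TPM, other pseudocounts, minima and thresholds, read counts and the highest coding sequence per gene were tried as alternatives. The script was tested on simulated data. Members and lists were chosen with earlier results of these data known. Every member is named. Other genes are named from lists, at most 4 per list and comparison by size, plus cell type checks. Neighbours and ARNT, HSP90AA1, RARA, TIPARP, NQO1, VDR, ALAS1, NR1I2, NR1I3 and EGLN2 were added after their values were seen. Sequences were not used here.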

Additional observations from a re-analysis of the deposited data

How the results depend on the processing

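No paired analysis was possible because each stage has 1 library, and for the same reason no replicate could be left out. Over 525 recomputed differences of single measured genes, 496 stayed within a counting interval of the main value, 29 left it, and no called difference changed sign. That interval is not the one given in brackets and can be wider. With a pseudocount of 5, CYP4B1 for day 6 over day 4 was at 0.47 on the log2 scale. It was counted as within, although its bracketed interval starts at 1.92-fold. For day 6 over day 4 the main counts were 5 up and 3 down. TPM gave 1 up. A pseudocount of 0.1 gave 8 up, where 12.1% of all measured genes rose. A pseudocount of 5 and a 4-fold threshold each gave 0 up and 1 down (CYP1B1). Of all measured genes, 3.68% rose and 3.52% fell with the former, and 1.18% and 0.671% with the latter. With gene-column names only, an alternative chosen after seeing the data, the member counts were 2 up and 0 down, against 8.06% and 6.73%. For day 10 over day 6, against 9 up and 1 down, the counts up were 6 with TPM, 3 with a pseudocount of 5 (LOC100353821, CYP4B1 and CYP2A11), 5 with a minimum of 5 CPM, 4 at 4-fold and 6 with gene-column names only. The count down was 0 under these and also with no TMM and with read counts. Of all measured genes, 7.31% rose with TPM, 4.38% with a pseudocount of 5, 7.87% with a minimum of 5 CPM and 1.68% at 4-fold. The shares that fell were 6.81%, 3.53%, 7.75% and 0.25% in the same order, 6.69% with no TMM and 7.13% with read counts. For day 10 over day 4 the main counts were 10 up and 3 down. They were 15 up with a pseudocount of 0.1 and 6 up and 1 down with a pseudocount of 5. With a minimum of 5 CPM 6 rose, at 4-fold 7 rose and 1 fell, and with gene-column names only 6 rose and 0 fell. Of all measured genes, 20.3% rose with a pseudocount of 0.1 and 16.9% with a minimum of 5 CPM. With a pseudocount of 5, 10.3% rose and 10.3% fell, and at 4-fold 4.7% and 3.09%. TPM moved the median of all genes to -0.30 and no TMM to -0.14 for day 6 over day 4, and to -0.31 and -0.11 for day 10 over day 4. Of all measured genes, 4.53% then rose and 13.2% fell with TPM, and 6.14% and 9.49% with no TMM, for day 6 over day 4; for day 10 over day 4 they were 11.2% and 23.9% with TPM, and 15% and 19% with no TMM. Counts over the other gene lists were not recomputed. Depth limits the genes of few fragments, as their wide counting intervals show.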
